A study of Zea mays with 42 samples.

Results

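Bidirectional gene pairs (BDGPs) stand head to head on opposite strands, so that their 5′ ends face each other and the short stretch between them can serve as a bidirectional promoter (BD PRO). In plants and animals such pairs are known for housekeeping roles in many cases, and a single promoter can drive both genes or only one of them. The genes described here come from half-covered pairs with a short putative shared promoter, chosen by distance alone. One gene of each pair has a probe set on the Affymetrix maize array, the other has none, and less than 300 bp separates the end of the first gene from the start of the second in the study's table of gene positions. Of 1628 pairs annotated with the array, 414 were half-covered, 228 of these stood in the position table, and 89 had a distance under 300 bp, so 89 covered genes were followed out of 17555 maize probe sets. The second gene of each pair was not measured, and nothing below bears on whether the genes of a pair were expressed together.

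Signals came from 42 arrays, 3 biological replicates in each of 14 tissues, and all plants were untreated and of the inbred line B73. Seed was sampled as embryo, which becomes the seedling, and as endosperm, which feeds it, and the days after pollination (DAP) were 10, 15, 20 and 25 for both. The 6 non-seed tissues were root, stem, stem tip and leaf of plants in the big trumpet period, a vegetative stage, and ear and silk taken before pollination. Whether a replicate pooled several plants is not stated in the sources used here, and each tissue is a mixture of cells, so fewer cells of a type and less RNA per cell cannot be told apart. Tissue markers were highest in the labelled tissue for 15 of 15 endosperm, 6 of 9 embryo, 11 of 13 leaf, 5 of 7 root and 6 of 7 floral probe sets. Markers of dividing cells were highest in stem tip or ear for 1 of 6 probe sets, and on average in embryo at 10 DAP.

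The distances ran from 7 to 298 bp with a median of 180 bp. There were 18 genes under 100 bp, 32 from 100 to under 200 bp and 39 from 200 bp up, and 45 of the 89 genes lay on the reverse strand. The shortest distances belonged to GRMZM2G109550 (7 bp), GRMZM2G171662 (22 bp) and GRMZM2G069008 (36 bp). At the upper limit GRMZM2G165681 (294 bp, tissue means 802 to 1862) and GRMZM2G006121 (298 bp, 147.5 to 975.2) were just inside. GRMZM2G133844 (304 bp, 82.28 to 9160) and GRMZM2G036543 (306 bp, 16.37 to 47.43) were just outside. The covered genes were spread over all 10 nuclear chromosomes, with 14 on chromosome 5 and 3 on chromosome 10, and 1 gene, GRMZM5G804671, was on the mitochondrial sequence. RefSeq had 1 entry for 73 covered genes, and for 44 pairs it had 1 entry for each gene, of which 42 were direct neighbours there as well.

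Putative promoters of 19 of the 89 pairs were cloned in the study with 20 primer sets. The primers below bound the cloned region of 6 of these pairs. They were picked for a tissue pattern or a high signal after the values were seen, not by a ranking. The capitals mark the restriction site used for cloning, XbaI in the forward (f) primer and NcoI in the reverse (r) primer. The bp value beside each gene is the distance to its partner in the table of gene positions, not the length of the cloned region.
GRMZM2G054155, 272 bp on chromosome 7, forward: ctTCTAGAtgaccgtgttcctcagccgc
GRMZM2G054155, 272 bp on chromosome 7, reverse: gtcCCATGGactagaatcatgtgtgcttc
GRMZM2G020574, 221 bp on chromosome 7, forward: acTCTAGAgttattaaaattagatatttcc
GRMZM2G020574, 221 bp on chromosome 7, reverse: gctCCATGGtcctccgacgagccctcgc
GRMZM2G305007, 174 bp on chromosome 2, forward: acTCTAGAcgtcgtgatcttctgagag
GRMZM2G305007, 174 bp on chromosome 2, reverse: gctCCATGGtgtttgtaacggcgtgatt
GRMZM2G319062, 256 bp on chromosome 4, forward: ctTCTAGAccaacgccgtgattcgcg
GRMZM2G319062, 256 bp on chromosome 4, reverse: gtcCCATGGacagagtcgcagtcggagac
GRMZM2G062524, 232 bp on chromosome 3, forward: ctTCTAGAcccaacgccaggtgcccgg
GRMZM2G062524, 232 bp on chromosome 3, reverse: atcCCATGGtctcgtacccagcaggcgca
GRMZM5G851698, 217 bp on chromosome 2, forward: acTCTAGAatctctcgtgctcaacagc
GRMZM5G851698, 217 bp on chromosome 2, reverse: gctCCATGGacagatgcgacggctcaac
Outside the restriction tails, the part of the 40 primers that pairs with the genome had a median GC content of 60.55%. The lowest share was 18.2% in the forward primer of GRMZM2G020574, and the highest was 85.0% in the reverse primer of GRMZM2G062953.

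Most covered genes were expressed broadly. A gene was counted as detected in a tissue at a MAS5 signal, the array's brightness summary, of at least 100 in all 3 replicates. By this measure 54 of the 89 genes (60.7%) were detected in all 14 tissues, 30 in some of them and 5 in none. The share detected in none was 5.62%, against 9.38% of all maize probe sets. The share detected everywhere was 59.0% of 139 half-covered genes with longer distances, 65.5% of 148 genes from pairs covered on both sides and 53.4% of all maize probe sets. Detection was lowest in root, with 65 genes (background 71.4% of all maize probe sets), and highest in endosperm at 20 DAP, with 78 genes (background 77.3%). Root was the lowest tissue for all maize probe sets as well, and their highest was endosperm at 25 DAP (79.5%). Root replicate 1 stood apart from its replicates over all probe sets, and its part in the root count was not tested.

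The median of the genes' mean signals was 566.8, against 491.0 for the longer distances, 693.1 for the fully covered pairs and 438.9 for all maize probe sets. Single genes ranged from 14.57 to 7918. Genes under 100 bp had a median of 662.8, those from 100 to under 200 bp 631.7, and those above 364.3, but across genes distance and log2 mean signal were nearly unrelated (Spearman rho -0.0764, n = 89, given as a description, since all genes were read on the same arrays). The replicate SD of a gene within tissues had a median of 0.20 on the log2 scale, and it was highest for GRMZM2G109550 (0.72), whose probe set may also read related genes.

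**Figure D1:**
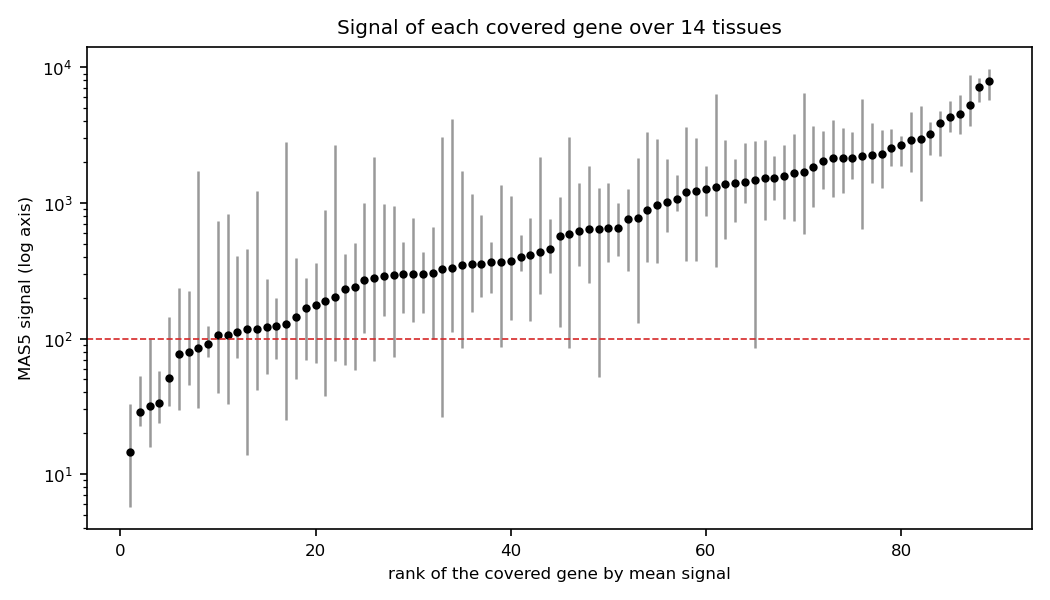
Signal of each covered gene, ordered by its mean over 14 tissues (log axis); the dot is the geometric mean of the tissue means, the line runs from the lowest to the highest tissue mean, and the dashed line is the detection limit of 100. Mean signals run from 14.57 to 7918, and 5 genes were detected in no tissue.

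Among the brightest genes was GRMZM5G851698. It is known as rps6-2 and encodes protein S6 of the small ribosomal subunit, and its tissue means lay between 5708 ± 919.7 (SD, n = 3) in silk and 9737 ± 658.6 in stem tip. GRMZM2G047512 had means from 5585 ± 180.2 in embryo at 25 DAP to 8349 ± 78.53 in leaf, and its tau, a tissue specificity that is 0 for an even gene and 1 for a gene found in 1 tissue, was the lowest of all covered genes, 0.0356. GRMZM2G174741 (tau 0.0481), GRMZM5G851698 (0.0483), GRMZM2G175419 (0.0568) and GRMZM2G032367 (0.0583) followed. GRMZM2G175419 is RS2Z37A, a splicing factor of the SR protein family, and it was lowest in leaf (2220 ± 113, n = 3) and highest in endosperm at 20 DAP (4725 ± 29.16). The other genes among the 5 brightest were GRMZM2G013318 (3710 to 8766), GRMZM2G138527 (3229 to 6261) and GRMZM2G024310 (3333 to 5624).

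Tau could be taken for 85 of the 89 genes and had a median of 0.334, against 0.407 for the longer distances, 0.271 for the fully covered pairs and 0.408 for all maize probe sets. It was 0.8 or more for 11 genes (12.9%; 16.0% of all maize probe sets) and under 0.1 for 8 genes (9.41%; 7.0% of all). Since tau counts only signal above 100, it goes up as genes get dimmer (rho -0.928 with log2 mean signal over the 85 genes). The highest value, 0.994, belonged to GRMZM2G054655, whose highest tissue mean was only 143 ± 49.93 (n = 3) in embryo at 25 DAP. GRMZM5G804671 (0.905) likewise reached only 122.7 in ear. GRMZM2G305007 (0.944) and GRMZM2G027219 (0.902) with their highest means in leaf, and GRMZM2G041068 (0.906) with its highest mean in root, were bright in those tissues.

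The 5 genes detected in no tissue were GRMZM2G054655, GRMZM2G048392, GRMZM2G152258, GRMZM2G162233 and GRMZM2G460581. Signals of GRMZM2G048392 ran from 19.3 to 62.99 over the 42 arrays, those of GRMZM2G162233 from 21.03 to 64.1, and those of GRMZM2G152258 from 4.53 to 37.16. None of these arrays reached 100, and GRMZM2G460581 passed it only on some endosperm arrays, up to 108.45. Calls below that concern these genes rest on signals near the bottom of the scale.

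**Figure D2:**
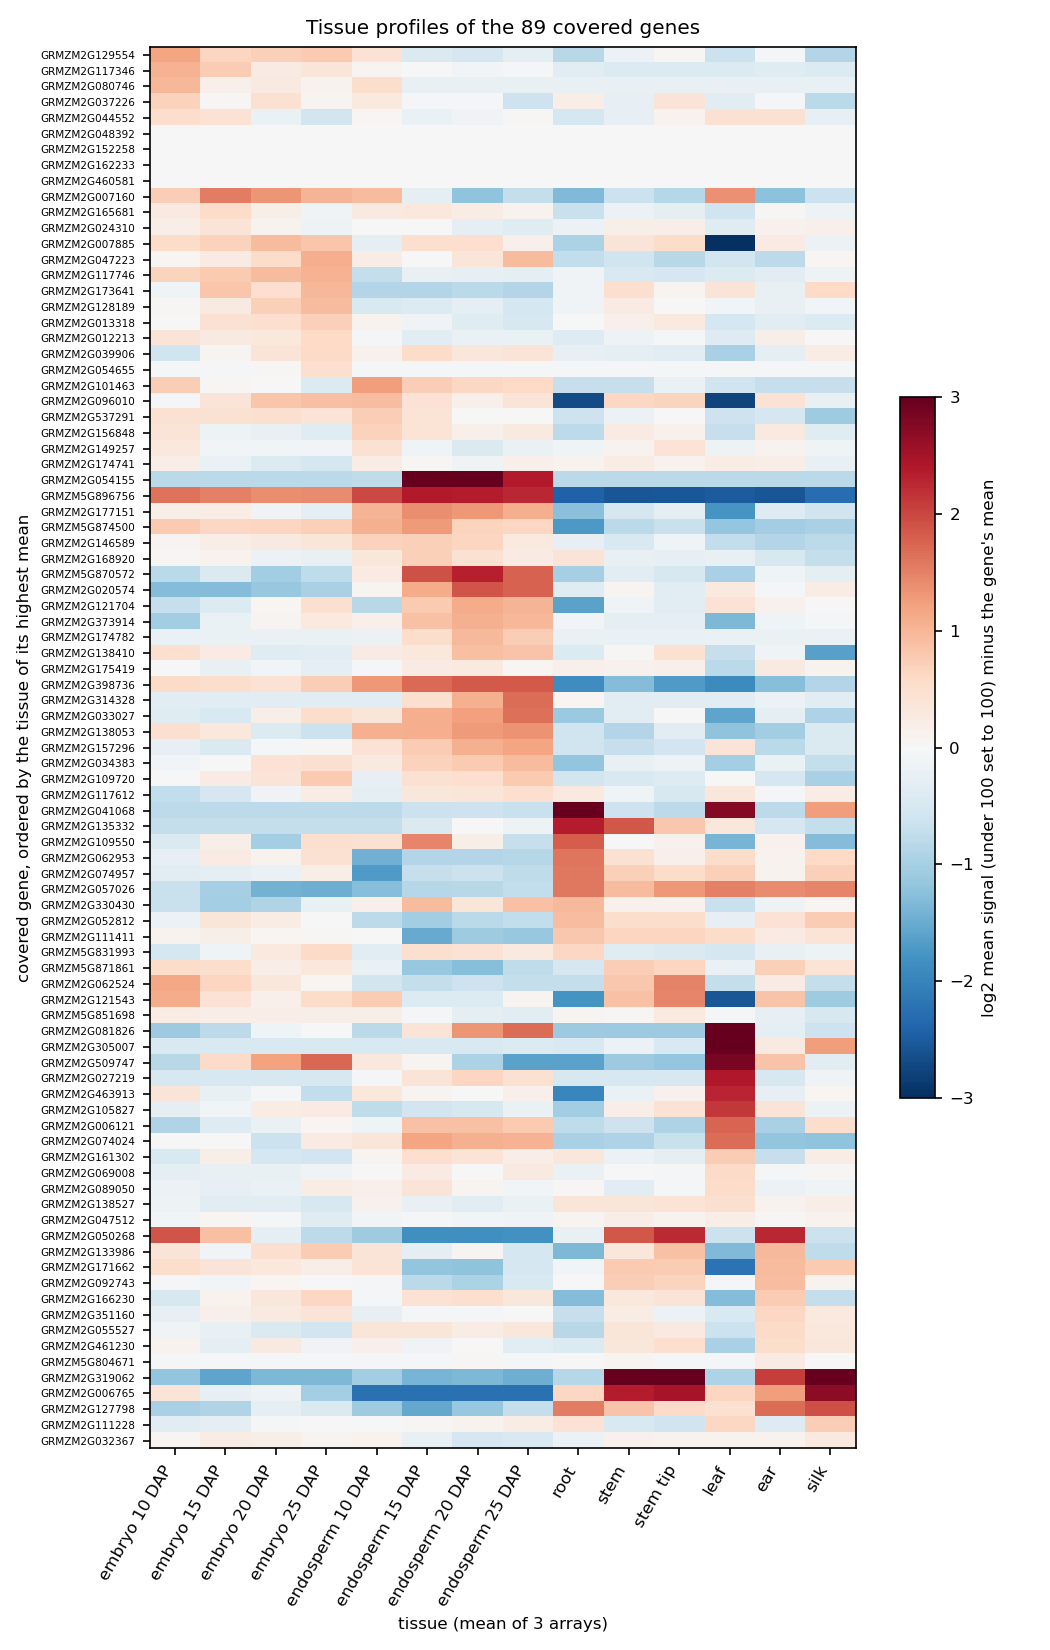
Tissue profiles of the 89 covered genes: each row is a gene, each column a tissue, and the colour is log2 mean signal (3 arrays, under 100 set to 100) minus the gene's mean over tissues, clipped at 3 log2 units either way. Rows are ordered by the tissue of the highest mean. The 4 white rows near the top are genes with all means under 100, which have no order here. With signals as measured, the highest mean lay in an embryo for 17 genes (19.1%, against 18.7% of all maize probe sets). It lay in an endosperm for 31 (34.8% against 30.0%) and in a non-seed tissue for 41 (46.1% against 51.3%).

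Seed tissues were set against non-seed tissues, the comparison named in the study's design. A small set of covered genes was far brighter in the seed: GRMZM5G896756 21.1-fold, GRMZM2G398736 6.39-fold and GRMZM5G874500 3.68-fold, while GRMZM2G057026 and the pentose phosphate enzyme gene GRMZM2G127798 were 5.26-fold and 4.09-fold lower there. In all, 17 of the 89 genes were called higher and 8 lower, a call being an adjusted p under 0.05 with a fold of at least 2 in a limma fit over all arrays. The background over the 17621 probe sets tested was 12.2% higher and 16.1% lower, against 19.1% and 8.99% of the covered genes and 9.35% and 15.8% of the genes with longer distances. The median log2 difference of the covered genes was 0.31, against 0.0 for all probe sets. With signals under 100 taken as 100, 12 of the 17 higher calls and all 8 lower ones still had a fold of at least 2.

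GRMZM5G896756, on chromosome 6, forward strand, 22307337 to 22312747, starts 198 bp from its partner (positions are those of the study's table; the genome build is not given in the sources used here). Its signals were 1499 at the lowest, 2078 at the median and 3415 at the highest over the 24 seed arrays, and 75.44, 101.2 and 157.49 over the 18 non-seed arrays. The groups were far apart, with 4.40 ± 0.05 log2 units (SE) between them (limma, adjusted p = 1.2e-35). Against non-seed tissues the embryos alone were 4.03 log2 units higher and the endosperms alone 4.78.

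GRMZM2G398736 gave 459.53 to 1439 in the seed and 81.76 to 311.15 elsewhere (log2 difference 2.68 ± 0.08 SE, limma adjusted p = 7.48e-25). GRMZM5G874500 gave 1807 to 3147 in the seed and 203.21 to 860.6 elsewhere (1.88 ± 0.06, limma adjusted p = 6.77e-24). No seed array of either gene was as dim as the brightest non-seed array. The partner of GRMZM5G874500, not on the array, is hsp70-5, a gene of the HSP70 chaperone family, and lies 179 bp away.

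Among the genes lower in the seed, GRMZM2G057026 gave 130.98 to 239.64 in the seed, and its non-seed signals ran from 672.27 to 1485 (log2 difference -2.40 ± 0.05 SE, limma adjusted p = 2.58e-29). GRMZM2G127798 is pgd2, phosphogluconate dehydrogenase of the oxidative pentose phosphate pathway, and gave 562.97 to 1414 in the seed and 2256 to 7356 elsewhere (-2.03 ± 0.07, limma adjusted p = 3.7e-24). For both genes the seed and non-seed arrays did not overlap. Tissue means of GRMZM2G127798 were highest in silk (6452 ± 1272, n = 3), ear (5413 ± 1493) and root (4917 ± 1904), and they overlapped within their SDs.

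Large falls with overlapping arrays were those of an actin gene and of GRMZM2G319062. GRMZM2G006765, named actin and Actin-7, belongs to the actin family of the cytoskeleton, whose members are alike in sequence, so its probe set may also read other members. Its log2 difference was -3.46 (SE 0.20, limma adjusted p = 4.4e-17). This value draws on endosperm signals of 19.82 to 78.67, and with signals under 100 taken as 100 it was -2.72, a 6.57-fold fall. Its root signals were 185, 79.62 and 1939 in replicates 1, 2 and 3. For GRMZM2G319062 the log2 difference was -3.11 (SE 0.08, limma adjusted p = 2.75e-27). Its mean was 4131 ± 458.7 in silk, 3605 ± 464.1 in stem tip, 3446 ± 761.8 in stem and 1412 ± 272.6 in ear, but 185.8 ± 76.77 in root and 175.8 ± 10.63 in leaf, near the seed range of 88.45 to 176.15.

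Scaling changed how the calls split. Trimmed mean signals lay between 886 and 1069.9 on seed arrays and between 1130 and 1244 on the others, and with arrays scaled to a common trimmed mean the calls were 26 higher and 6 lower, where 17.7% and 12.1% of all probe sets were called. Centred on the hybridization controls they were 13 higher and 11 lower, where 10.3% and 18.3% of all probe sets were called.

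**Figure D3:**
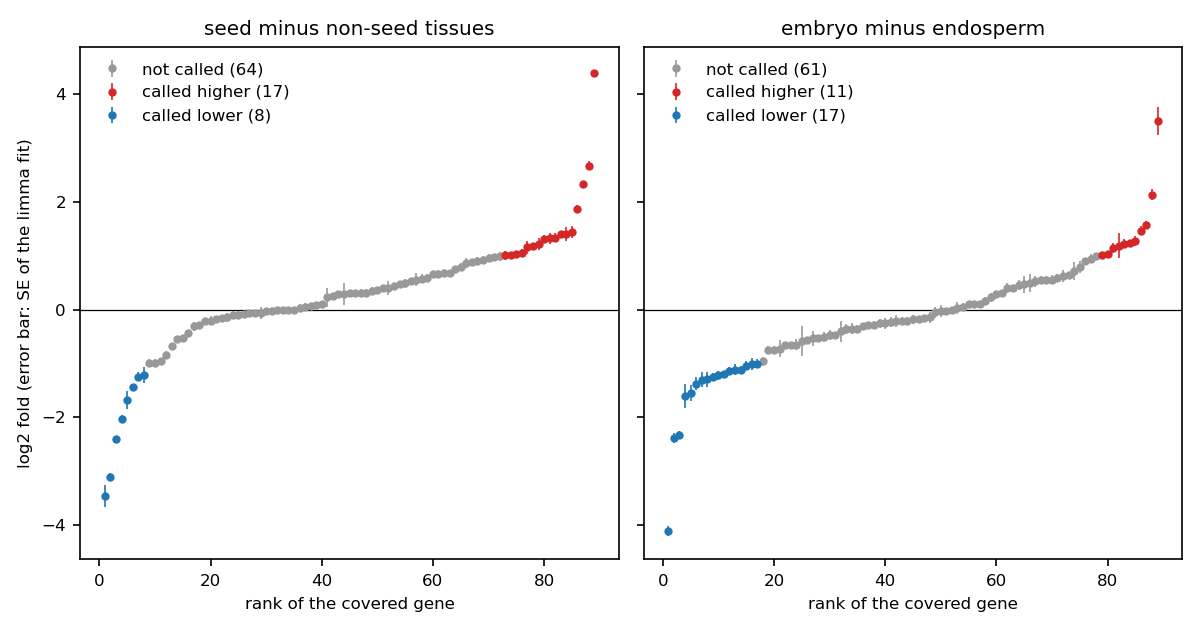
Log2 fold of each covered gene in seed against non-seed tissues (left) and in embryo against endosperm (right), in rank order, with the SE of the limma fit; red genes were called higher and blue ones lower. The left panel has 17 genes called higher and 8 lower, and the right panel 11 and 17.

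Within the seed, embryo and endosperm differed for 28 covered genes. 11 genes were called higher in embryo (12.4%; background 16.7%) and 17 lower (19.1%; background 14.8%), averaged over the 4 ages. The covered genes had a median log2 difference of -0.18 and all probe sets one of -0.12. Endosperm arrays were brighter at the hybridization controls, with a mean of 11.3 log2 units against 10.74 for embryo, and centring on these controls turned the split to 26 higher and 4 lower (backgrounds 29.0% and 5.94% with this centring). The part of this in the calls was not tested. The 3′ to 5′ signal ratio of the cyclophilin control, a sign of RNA quality, was 0.02, 0.07, 0.12 and 0.29 log2 units in embryo from 10 to 25 DAP and 0.02, 0.54, 0.81 and 0.42 in endosperm. For the actin control the ratio was -3.67, -4.34, -4.71 and -4.81 in embryo and -5.36, -6.0, -5.02 and -4.81 in endosperm. Its negative values mean that the 5′ probe set was the brighter one, so the actin ratio is not read here as RNA quality. The part of either ratio in the calls between seed parts and between ages was not tested. Of all 89 covered genes, 4 were called higher in embryo at each of the 4 ages (background 8.21% of all probe sets) and 3 lower (background 4.44%).

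GRMZM2G054155, on chromosome 7, forward strand, 156272658 to 156275850, was bright in endosperm and dim in every other tissue. From 10 to 25 DAP its endosperm means were 103.2 ± 13.44 (SD, n = 3), 1718 ± 380.2, 1610 ± 108.7 and 914.6 ± 94.06. No embryo array passed 53.34 and no non-seed array passed 44.33, so the gene was detected in endosperm at 15, 20 and 25 DAP and nowhere else, since 1 replicate at 10 DAP gave 89.62. With signals under 100 taken as 100 its endosperm level was at least 7.16-fold that of embryo.

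GRMZM2G020574 was lower in embryo (log2 difference -2.38 ± 0.09 SE, limma adjusted p = 1.03e-22). Its embryo signals ran from 102.71 to 149.26 with a median of 118.8, its endosperm signals from 278.69 to 1316 with a median of 741.9, and its non-seed signals from 164.74 to 370.71. GRMZM5G870572 was lower in embryo too (-2.33 ± 0.08, limma adjusted p = 1.56e-23), with 203.74 to 351.15 there and 500.6 to 2602 in endosperm. Both genes were thus above embryo on every endosperm array.

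GRMZM2G138053 gave 131.27 to 478.01 in embryo and 590.28 to 809.92 in endosperm (log2 difference -1.30 ± 0.14 SE, limma adjusted p = 1.66e-10). GRMZM2G330430 is RAB2A, a small GTPase of membrane traffic between endoplasmic reticulum and Golgi, and gave 868.74 to 1670 in embryo and 1950 to 3764 in endosperm (-1.29 ± 0.14, limma adjusted p = 3.4e-10). Its root replicate 1 gave 7791 where replicates 2 and 3 gave 1674 and 1654, and that array stands apart from its replicates over all probe sets as well. Centred on hybridization controls, both genes fell short of the fold of 2, at -0.73 log2 units each.

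In the other direction the actin gene GRMZM2G006765 had embryo means of 617.8 ± 66.36 (SD, n = 3), 399.6 ± 10.78, 423.3 ± 35.95 and 232.1 ± 20.96 from 10 to 25 DAP, while no endosperm array passed 78.67. Its embryo level was at least 3.94-fold that of endosperm with signals under 100 taken as 100. GRMZM2G173641 gave 158.71 to 381.72 in embryo and 62.36 to 112.84 in endosperm, at least 2.59-fold. GRMZM2G062524 gave 160.41 to 391.06 in embryo and 78.2 to 125.83 in endosperm, at least 2.28-fold. Each of these 3 genes was near or under the detection limit in endosperm.

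GRMZM5G871861 (842.6 to 1175 in embryo, 295.31 to 679.98 in endosperm) was 1.24 ± 0.06 log2 units higher in embryo (limma adjusted p = 2.34e-18). GRMZM2G117746 (1473 to 2143 against 600.16 to 929.83) was 1.23 ± 0.09 higher (limma adjusted p = 3.23e-14). Neither showed overlap between the seed parts, and both were well detected in each.

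Changes with age were few. Embryos at 20 and 25 DAP were set against those at 10 and 15 DAP, and 2 covered genes rose (2.25%; background 6.95%) and 1 fell (1.12%; background 3.69%). In endosperm 5 rose (5.62%; background 5.23%) and 3 fell (3.37%; background 1.86%). No gene was called the same way in both, and 1 gene was called in opposite ways. The change with age differed between embryo and endosperm for 9 genes by an interaction term, higher in embryo for 4 (background 5.1%) and lower for 5 (background 7.12%). Scaling again moved the splits. Centred on hybridization controls, endosperm had 2 rises and 5 falls (backgrounds 2.59% and 4.71%) and the interaction 9 higher and 2 lower (backgrounds 13.0% and 2.85%). Embryo had 2 rises and 2 falls with quantile normalization (backgrounds 6.37% and 4.38%) and with centring on the median (backgrounds 5.91% and 4.93%).

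GRMZM2G509747, on chromosome 10, was the gene called in opposite ways. From 10 to 25 DAP its embryo means were 173.2 ± 72.91 (SD, n = 3), 455.4 ± 319.6, 709.1 ± 227.9 and 1004 ± 360.9, and its endosperm means were 380 ± 66.83, 324.5 ± 81.67, 157.8 ± 38.54 and 82.43 ± 12.32. Embryo rose by 1.70 ± 0.33 log2 units (SE, limma adjusted p = 5.43e-05) and endosperm fell by 1.62 (SE 0.33, limma adjusted p = 0.000124), with a wide spread between embryo replicates.

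GRMZM2G050268, whose unmeasured partner myb31 encodes a MYB repressor of lignin genes in maize, fell by 1.93 log2 units in embryo (SE 0.14, limma adjusted p = 1.85e-13). Its means were 1325 ± 52.13 (SD, n = 3), 667.3 ± 76.3, 292.5 ± 56.98 and 209.6 ± 22.88 from 10 to 25 DAP, each age lower than the one before by more than the replicate SD. In endosperm they stayed between 84.74 and 171.5, and the change there did not pass the test (limma adjusted p = 0.114). The young embryo lay near stem tip (1699 ± 151.9), ear (1731 ± 452.9) and stem (1314 ± 284.6), where this gene was brightest.

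In endosperm the rising genes with arrays that did not overlap were GRMZM2G081826, GRMZM2G020574 and GRMZM2G121704. GRMZM2G081826 went from 122.2 ± 10.16 (SD, n = 3) at 10 DAP through 278.9 ± 3.311 and 537.1 ± 81.12 to 678.9 ± 80.13 at 25 DAP, and rose by 1.70 ± 0.10 log2 units between the earlier and later ages (limma adjusted p = 3.36e-15). GRMZM2G020574 went from 287.7 ± 14.18 through 583.3 ± 65.36 and 1000 ± 273.5 to 926.6 ± 77.09. GRMZM2G121704 went from 171.1 ± 18.87 to 613.7 ± 41.3, with 1.09 log2 units between earlier and later ages, and it fell short of the fold of 2 with arrays centred on their median (0.93), centred on hybridization controls (0.77) or with a pseudocount of 32 (0.99). All 3 had gained most of their level by 15 or 20 DAP.

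For the other interaction genes, GRMZM2G007160 held 1084 to 1865 as tissue means in embryo but fell in endosperm from 1246 ± 42.66 (SD, n = 3) at 10 DAP to 279.8 ± 24.66 at 20 DAP (log2 change -1.30 ± 0.11 SE, limma adjusted p = 3.65e-11). GRMZM2G054155 rose in endosperm by 1.54 ± 0.13 log2 units (limma adjusted p = 3.65e-11), with the step between 10 and 15 DAP. Its interaction of -2.05 log2 units was -1.51 with signals under 100 taken as 100, since no embryo array reached 100. In GRMZM2G138410, GRMZM5G870572, GRMZM2G138053 and GRMZM2G096010 neither seed part alone was called, and the interaction values were -1.29, -1.24, -1.18 and 1.10 log2 units. Centred on hybridization controls, GRMZM2G138410 and GRMZM2G138053 were no longer called (-0.82 and -0.71). GRMZM2G054655 (1.17) was under 200 on every array and came to 0.34 with signals under 100 taken as 100, and its call was lost without replicate 1 of every tissue (0.99 log2 units, limma adjusted p = 0.0746).

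**Figure D4:**
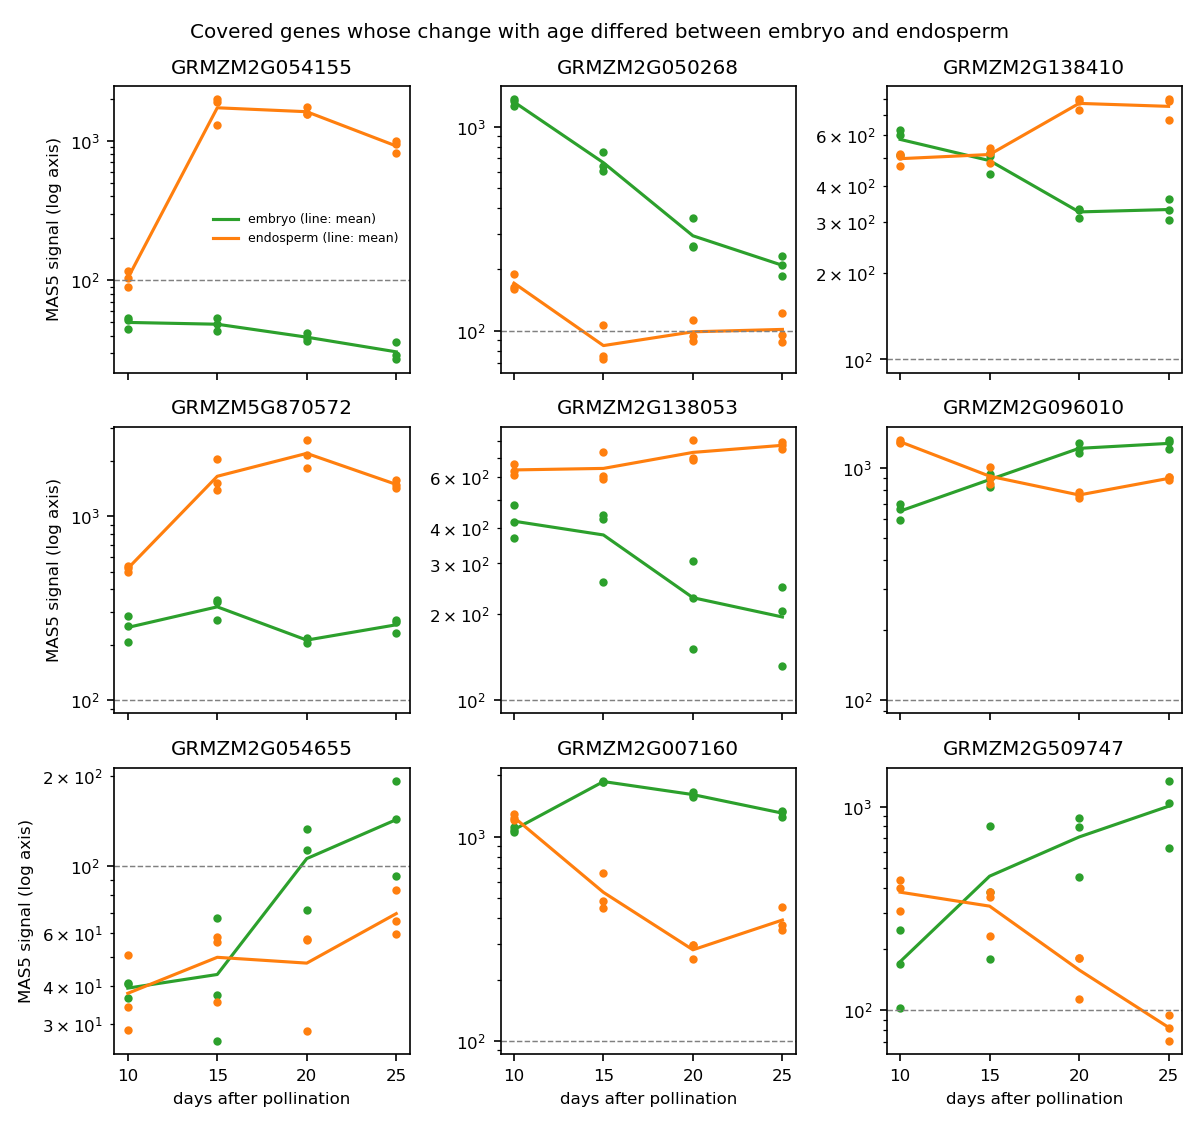
Signals of the 9 covered genes whose change with age differed between embryo (green) and endosperm (orange), against days after pollination; dots are single arrays, lines join the means of 3 replicates, the axis is logarithmic and the dashed line is the detection limit of 100. GRMZM2G509747 rises in embryo and falls in endosperm, and GRMZM2G054155 goes from 103.2 to 1718 in endosperm between 10 and 15 DAP.

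Each non-seed tissue was also set against the mean of the other 5. At least 1 tissue gave a call for 34 of the 89 genes, 38.2% against a background of 47.1% of all probe sets. Leaf gave the most calls with 11 genes higher and 14 lower (backgrounds 14.7% and 18.3%). Root had 5 higher and 15 lower (backgrounds 11.4% and 13.0%). Stem tip had 10 higher and 5 lower (8.4% and 10.8%) and stem 8 higher and 3 lower (7.24% and 5.15%). Ear had 8 and 2 (10.8% and 7.83%) and silk 5 and 6 (9.68% and 8.6%). Root replicate 1, stem replicate 2 and ear replicate 3 stood apart from their replicates. Without these arrays 37 genes were called, and the share of all probe sets called without them is not given here.

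In leaf the largest rise was that of GRMZM2G081826, on chromosome 5, reverse strand, 183480806 to 183483423. Its leaf signals were 2601, 2682 and 2800, and the other non-seed arrays lay between 63.25 and 183.72, a log2 difference of 4.68 ± 0.11 (SE, limma adjusted p = 2.6e-27). Its partner 107 bp away, TAB2, has no probe set on the array; it is named for a factor that in the alga Chlamydomonas is needed for translation of a photosystem I protein. GRMZM2G509747 gave 1494, 3223 and 1857 in leaf and 54.55 to 1111 in the other non-seed tissues (3.64 ± 0.36, limma adjusted p = 6.29e-11). Its embryo arrays reached 1340.75.

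GRMZM2G305007 gave 1491, 1226 and 980.6 in leaf and 35.96 to 414.38 in the other non-seed tissues (3.35 ± 0.16, limma adjusted p = 1.38e-18). Both seed parts were dim for this gene, with tissue means of 73.12 to 102.6. GRMZM2G027219, named for its high tau, gave 718.9, 706.9 and 785.7 in leaf and at most 147.63 in the other non-seed tissues, at least 7.02-fold. All 4 genes were brighter on every leaf array than on any other non-seed array, and GRMZM2G509747 came nearest to an overlap, with 1111 on an ear array.

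GRMZM2G007885 was the reverse case, with 77.88, 106.2 and 69.6 in leaf and 669.42 to 2427 in the other non-seed tissues, at least 14.5-fold lower. GRMZM2G171662, 22 bp from its partner, gave 115.02 to 131 in leaf and 476.31 to 1204 in the other non-seed tissues (-2.86 ± 0.08, limma adjusted p = 4.03e-25). Its endosperm arrays went down to 221.56. Both genes were well detected in all other tissues.

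In root GRMZM2G041068 stood out, with 3387, 2515 and 2556 there and 23.19 to 1283 elsewhere among non-seed tissues (log2 difference 4.51 ± 0.30 SE, limma adjusted p = 1.8e-14). The tissue means of stem tip (24.9) and ear (36.39) were under 100, and with signals under 100 taken as 100 the difference was 3.63, a fold of 12.4. Leaf came next with 1157 ± 190.1 (SD, n = 3) and silk with 413.1 ± 195.2, and in stem replicate 2 gave 255.8 where replicates 1 and 3 gave 37.51 and 41.28. GRMZM2G062953 gave 2692, 3242 and 2972 in root and 794.58 to 1873 in the other non-seed tissues (1.25 ± 0.14, limma adjusted p = 4.89e-09). GRMZM2G074957 gave 3646, 3965 and 3373 in root and 789.87 to 2931 in the other non-seed tissues (1.08 ± 0.17, limma adjusted p = 2.58e-06).

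GRMZM2G135332, of a cloned pair, gave 100.3, 1413 and 986.7 in root, so 1 replicate lay an order of magnitude below the others. Its difference of 1.59 ± 0.35 log2 units (limma adjusted p = 0.000211) was 2.77 without replicate 1 of every tissue, and it was not called without replicate 2 (0.87, limma adjusted p = 0.114) or replicate 3 (1.13, limma adjusted p = 0.0823). The array that gave 100.3 is root replicate 1, which also stood apart over all probe sets.

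In stem tip a gene that rose without overlap was GRMZM2G121543, or rad51a, whose product carries out strand exchange in homologous recombination. Its stem tip signals were 2164, 2124 and 2184, and the other non-seed arrays ran from 123.51 to 1889 (log2 difference 2.23 ± 0.13 SE, limma adjusted p = 4.34e-15). Its next highest means were 1691 ± 205.3 (SD, n = 3) in embryo at 10 DAP, 1436 ± 441.3 in stem, 1425 ± 53.4 in ear and 1319 ± 183.5 in endosperm at 10 DAP, against 131 ± 6.842 in leaf and 225.7 ± 70.36 in root. GRMZM2G062524 was also highest in stem tip among non-seed tissues, with 385.7, 452.4 and 535 against 12 to 327.4 in the others, at least 3.22-fold. Its embryo arrays reached 391.06. Against the other non-seed tissues GRMZM2G138410 (541.79 to 590.28 against 126.24 to 474.75) was 1.03 ± 0.11 log2 units higher (limma adjusted p = 1.29e-09). It lost its call after quantile normalization (0.97) or with a pseudocount of 32 (0.94). Its stem tip mean was 568.8, below endosperm at 20 DAP (770.4) and 25 DAP (752.4) and embryo at 10 DAP (578.1).

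No covered gene called higher in stem, ear or silk was free of overlap with the other non-seed arrays, so none is named for these tissues. The share of all probe sets free of such overlap is not given here. The cyclophilin 3′ to 5′ ratio had its highest mean in silk (1.06 log2 units) and was 0.09 to 0.20 in the other non-seed tissues. The actin ratio was also highest in silk (-2.52), against -5.53 to -3.02 in the other non-seed tissues. The part of either ratio in the silk calls was not tested.

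**Figure D5:**
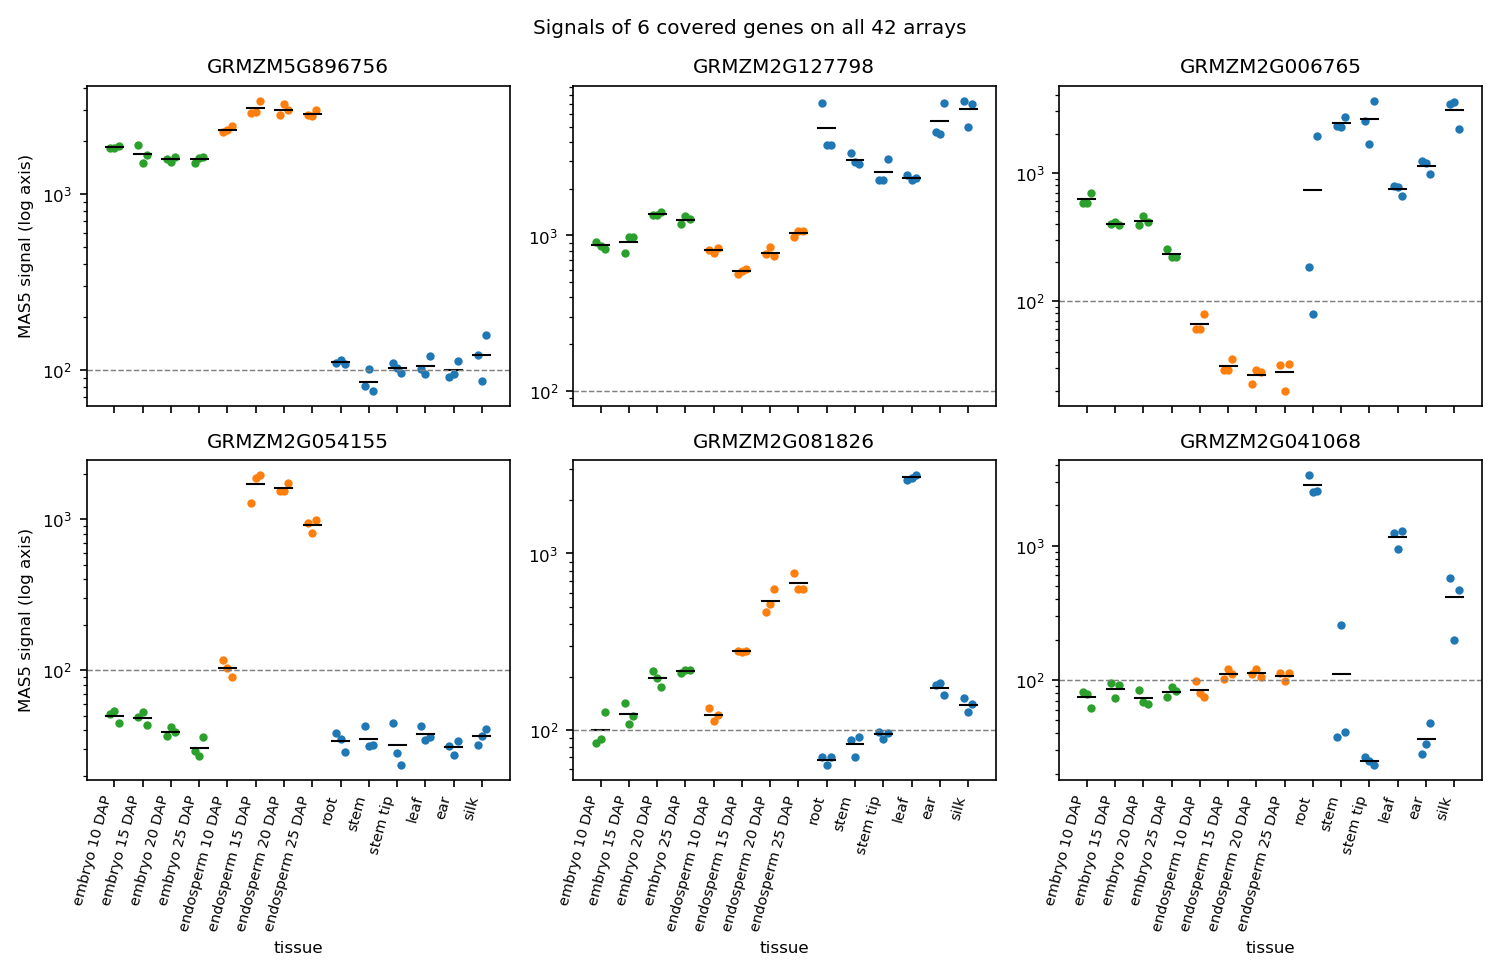
Signals of 6 covered genes on all 42 arrays (log axis), by tissue: dots are arrays, green for embryo, orange for endosperm and blue for non-seed tissues, black bars are means of 3 replicates and the dashed line is the detection limit of 100. GRMZM5G896756 is at 1499 or more on all seed arrays and at 157.49 or less on all others, and GRMZM2G081826 is brightest in leaf at 2601 to 2800.

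Among the 9 covered genes with an informative name, 7 were not called between seed and non-seed tissues and 2 were, where 28.3% of all probe sets were called in either direction. PRPK (GRMZM2G044552), named for a kinase that in humans phosphorylates p53, had tissue means from 1049 to 2227 and a log2 difference of 0.0 ± 0.04 (SE). Ligatin (GRMZM2G128189), in mammals translation initiation factor eIF2D, had 998 to 2755 and 0.09 ± 0.05, with its highest mean in embryo at 25 DAP. For RS2Z37A, rps6-2 and RAB2A the differences were -0.0 ± 0.03, 0.11 ± 0.03 and -0.06 ± 0.11, and rad51a had 0.66 ± 0.07. akr1 (GRMZM2G052812) lay at -0.84 ± 0.07, short of the fold of 2, with its highest mean in root (2926 ± 463.9, SD, n = 3). The genes named actin and pgd2 were called, both lower in the seed. PRPK, Ligatin and akr1 are named here for their names, after their values were seen.

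The 19 covered genes of cloned pairs were a mixed group. They included rps6-2, GRMZM2G013318 and GRMZM2G024310, at the 98.6, 96.5 and 95.0 percentile of mean signal among maize probe sets, and GRMZM2G054155 and GRMZM2G027219 at 16.5 and 20.2. The median mean signal was 330.9 for these 19 and 576.3 for the other 70. Of the 19, 10 (52.6%) were detected in all 14 tissues, against 62.9% of the other 70 and 53.4% of all maize probe sets. GRMZM2G177151, 82 bp from its partner, gave 4349 to 5905 in endosperm, 1652 to 2910 in embryo and 585.19 to 1929 in non-seed tissues. GRMZM2G006121 had its highest mean in leaf (975.2) and GRMZM2G117346 in embryo at 10 DAP (275.5). GRMZM2G069008 stayed between 872.5 and 1607 and GRMZM2G037226 between 69.41 and 279.9. In all, 32 of the 89 covered genes were called in none of the 11 comparisons and 57 in at least 1, where 66.8% of all probe sets had at least 1 call. Not called were, among others, GRMZM2G013318, GRMZM2G024310, GRMZM2G069008 and rps6-2.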

How the data were processed

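RNA of 14 B73 tissues was hybridized to Affymetrix maize arrays. The authors summarized each probe set and array with MAS5, and the deposited values are signals on a linear intensity scale; the version and the scaling target are not given in the sources used here. The table held 17734 probe sets, of which 113 controls were left out of tests. Arrays have no read depth, and the 3 replicates per tissue set the precision. Pairs, positions and primers came from the study's supplementary worksheets. Members, lists and comparisons were chosen with earlier results of these data known.

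Signals were taken to log2 and fitted as 14 group means over all 42 arrays. The fit used limma 3.58.1 (R 4.3.3), its eBayes step had a trend on mean signal, and p-values were adjusted by Benjamini-Hochberg over 17621 probe sets. Where the mean of a side was under 100, signals under 100 were taken as 100 and the fold is a lower bound without a test. Tau was taken over tissue means of log2 signal above 100. Genes named are the largest called changes without overlap of arrays in each comparison (up to 5 per direction, or 3 per non-seed tissue), the 5 at each end of tau, the 5 brightest, those detected in no tissue, those of cloned pairs and those at the distance limits; others are marked. Tissue markers were matched by symbol through RefSeq (Zm-B73-REFERENCE-NAM-5.0). Function lists and promoter motifs that had been planned were not made, because no descriptions or promoter sequences were used here. Alternatives were 4 scalings, a pseudocount of 32, a filter at 100 on 3 arrays, a fit without trend or restricted to the compared arrays, calls by adjusted p alone, a block for the replicate number, and arrays left out. Python 3.11.15, numpy, pandas and scipy were used for summaries.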

Additional observations from a re-analysis of the deposited data

Results flagged for a closer look

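The change with age differed between embryo and endosperm for 9 covered genes, each past an adjusted p of 0.05 and a fold of 2 in the interaction term of the limma fit. Values are the log2 change of embryo (20 and 25 DAP against 10 and 15 DAP) minus that of endosperm. It was 3.32 for GRMZM2G509747, which rose in embryo and fell in endosperm. It was 1.33 for GRMZM2G007160, 1.17 for GRMZM2G054655 (0.34 with signals under 100 taken as 100) and 1.10 for GRMZM2G096010. It was -2.05 for GRMZM2G054155 (-1.51 on that scale), -1.67 for GRMZM2G050268, -1.29 for GRMZM2G138410, -1.24 for GRMZM5G870572 and -1.18 for GRMZM2G138053. Groups of 3 arrays are too small for a test of single outlying arrays.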

How the results depend on the processing

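All single-gene results for the genes named kept their direction under each alternative: of 502 alternative values for 39 results, 488 stayed on the same side of the threshold, 14 lost the call and 0 reversed. With no fold threshold the counts of covered genes called were 70 in seed against non-seed tissues, 75 in embryo against endosperm, 48 for embryo age, 45 for endosperm age, 36 for the interaction and 86 for non-seed tissues, where 84.1%, 83.7%, 48.4%, 47.0%, 40.0% and 92.6% of all probe sets were called. Embryo against endosperm at 10 DAP alone gave 12 calls, 7 higher and 5 lower (all probe sets 12.7% and 6.78%). A detection limit of 50 left 2 genes detected in no tissue. The median tau was 0.286 with a floor of 50, 0.434 with a floor of 200 and 0.335 to 0.344 with 1 replicate left out. Leaving out 1 replicate of every tissue gave 24 to 27 calls in seed against non-seed tissues, 27 in embryo against endosperm, 3 to 4 and 8 for the ages, 9 to 11 for the interaction and 36 to 42 for non-seed tissues. The shares of all probe sets called with a replicate left out are not given here. The median log2 difference of all probe sets moved with the scaling, between -0.12 and 0.27 for seed against non-seed and between -0.30 and 0.44 for embryo against endosperm; the cause was not tested. Same-numbered arrays of different tissues had a median correlation of deviations of 0.00669, with single values from -0.47 to 0.50. A median over all tissues cannot tell whether particular tissues were paired, and this was not tested. The replicate block, shared by all tissues, left every count as it was (25, 28, 3, 8, 9 and 34).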
